A study of Mus musculus with 9 samples.

Results

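The 52 mouse genes described here are the interferon receptors, the kinases, STAT and IRF factors that carry their signal, and genes that interferon is known to induce, without those of antigen presentation. They were given as a list of symbols and matched to the Entrez gene IDs of the table. All 52 matched, of 28059 IDs in all. A gene was tested where it reached 1 RPKM (reads per kilobase of gene model per megaread) in at least 3 of the 9 libraries, which kept 51 of the 52 genes among 12568 genes tested. The cells are YAMC, a mouse intestinal line known to come from a mouse with a temperature-sensitive large T antigen that an interferon-responsive promoter drives. The study asked which transcripts change when Cdk8, a kinase that associates with Mediator, is knocked out with CRISPR. There were 3 libraries of Cdk8 knockout clone 1 (Cdk8 -/-), 3 of Cdk8 knockout clone 19 (Cdk8 -/-) and 3 of the parental line (wild type). All were YAMC cells kept at 32 °C and collected while growing logarithmically. Each knockout is 1 clone, and no clone with intact Cdk8 was included, so what comes of Cdk8 and what comes of cloning cannot be told apart. The labels do not say whether the medium held interferon gamma, which is commonly given to this line. They also do not say whether the 3 libraries of a group came from separate cultures, so p-values measure the spread between these libraries only.

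Type I interferons bind the receptor pair Ifnar1 and Ifnar2, and interferon gamma binds Ifngr1 and Ifngr2. The kinases Jak1, Jak2 and Tyk2 on these receptors phosphorylate STAT proteins, which bind interferon-stimulated response elements (ISRE) together with Irf9, or gamma-activated sites (GAS) as dimers. The induced genes include antiviral effectors, sensors of foreign nucleic acid, the ISG15 conjugation system, large families of GTPases, and inhibitors such as Socs1, Socs3 and Usp18 that switch the signal off.

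Library depth was estimated from exon lengths and low values. It was 23.0 to 32.5 megareads in clone 1, 24.7 to 33.2 in clone 19 and 28.1 to 43.9 in the parental line. Cdk8 itself had 10.3, 11.1 and 11.6 RPKM in clone 1. Cdk8 reached 10.5, 10.3 and 10.3 RPKM in clone 19, against 17.5, 17.7 and 17.5 RPKM in the parental line. The clone libraries all lay below the parental ones, at a log2 fold change of -0.66 (clone 1) and -0.74 (clone 19); transcripts of an edited gene can persist. Of 18 intestinal epithelial markers, 4 passed the filter (Krt8, Krt18, Krt19 and Cdh1). Cdh1 passed through the clone 19 libraries alone (1.25, 1.13 and 1.38 RPKM) and averaged 0.521 RPKM in clone 1 and 0.549 RPKM in the parental line. Epcam and Vil1 stayed at or below 0.161 RPKM in each group mean, and Cdx2 was listed at 0 in all 9 libraries. Of 12 mesenchymal markers, 11 passed the filter. The summed RPKM of the epithelial list was 986 to 1037 across clone 1 libraries, 969 to 976 across clone 19 libraries and 614 to 632 across parental ones. Nearly all of that sum was Krt8, Krt18 and Krt19. Their means were 223.9, 613.9 and 174.3 RPKM in clone 1, 206.4, 581.5 and 182.9 in clone 19, and 130.1, 391.5 and 101.0 in the parental line. The mesenchymal list summed to 2469 to 2508 RPKM in clone 1, 2203 to 2261 in clone 19 and 2376 to 2442 in the parental line. Vim was the largest part of that sum, with means of 1100 RPKM in clone 1, 946.5 in clone 19 and 1199 in the parental line. Single genes of the list went both ways. Of the 11 tested, 5 were called higher and 6 lower in clone 1, and 4 and 7 in clone 19. Over all genes tested, 39.8% were called higher and 32.6% lower in clone 1, and 36.7% and 32.3% in clone 19. Immune cell markers summed to 5.20 to 6.13 RPKM across clone 1 libraries, 5.30 to 6.31 across clone 19 libraries and 5.93 to 6.54 across parental ones. Of these 25 markers, 2 passed the filter (Cd68 and Cd14) and 6 were at 0 in all libraries. Cd68 averaged 3.12 RPKM in clone 1, 3.56 in clone 19 and 2.62 in the parental line. Cd14 averaged 1.61 RPKM in clone 1, 1.55 in clone 19 and 1.76 in the parental line. The pan-leukocyte gene Ptprc was at no more than 0.00201 RPKM in each group mean. In bulk RNA, fewer cells that express a gene and less of its RNA per cell cannot be told apart.

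The interferon genes did not move one way in the Cdk8 knockout clones: about as many rose as fell, and most changes were small. Clone 1 had 23 genes higher than the parental line, 20 lower and 8 that did not pass the test (limma, Benjamini-Hochberg adjusted over the 12568 genes). Of all genes tested in that comparison, 72.4% were called, 39.8% higher and 32.6% lower, against 84.3% of the interferon genes. Clone 19 had 23 genes higher, 17 lower and 11 that did not pass. That is 78.4% called, against 69.0% of all genes (36.7% higher and 32.3% lower). Both comparisons use the same 3 parental libraries. The clones mostly shared the direction: 19 genes rose in both, which is 37.3% of them against 30.7% of all genes. Another 16 fell in both, which is 31.4% against 25.8%. Oasl2 alone was called in opposite directions (1.93% of all genes), 11 genes were called in 1 clone, and 4 (Ifit3, Oas3, Mx2 and Trim21) in neither. Called changes of at least 1.5-fold were found for 5 genes in clone 1 (9.8%, against 13.9% of all genes) and for 4 in clone 19 (7.84%, against 12.4%). These shares rest on 5 and 4 genes, and their difference from the background was not tested. The interferon genes had a median log2 fold change of 0.07 (clone 1) and 0.06 (clone 19), beside 0.03 and 0.02 over all genes. Without their signs the medians were 0.25 and 0.27, beside 0.22 and 0.20. Libraries of a clone and of the parental line did not overlap for 43 interferon genes (84.3%, against 75.1% of all genes) in clone 1 and for 42 (82.4%, against 73.5%) in clone 19.

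**Figure D1:**
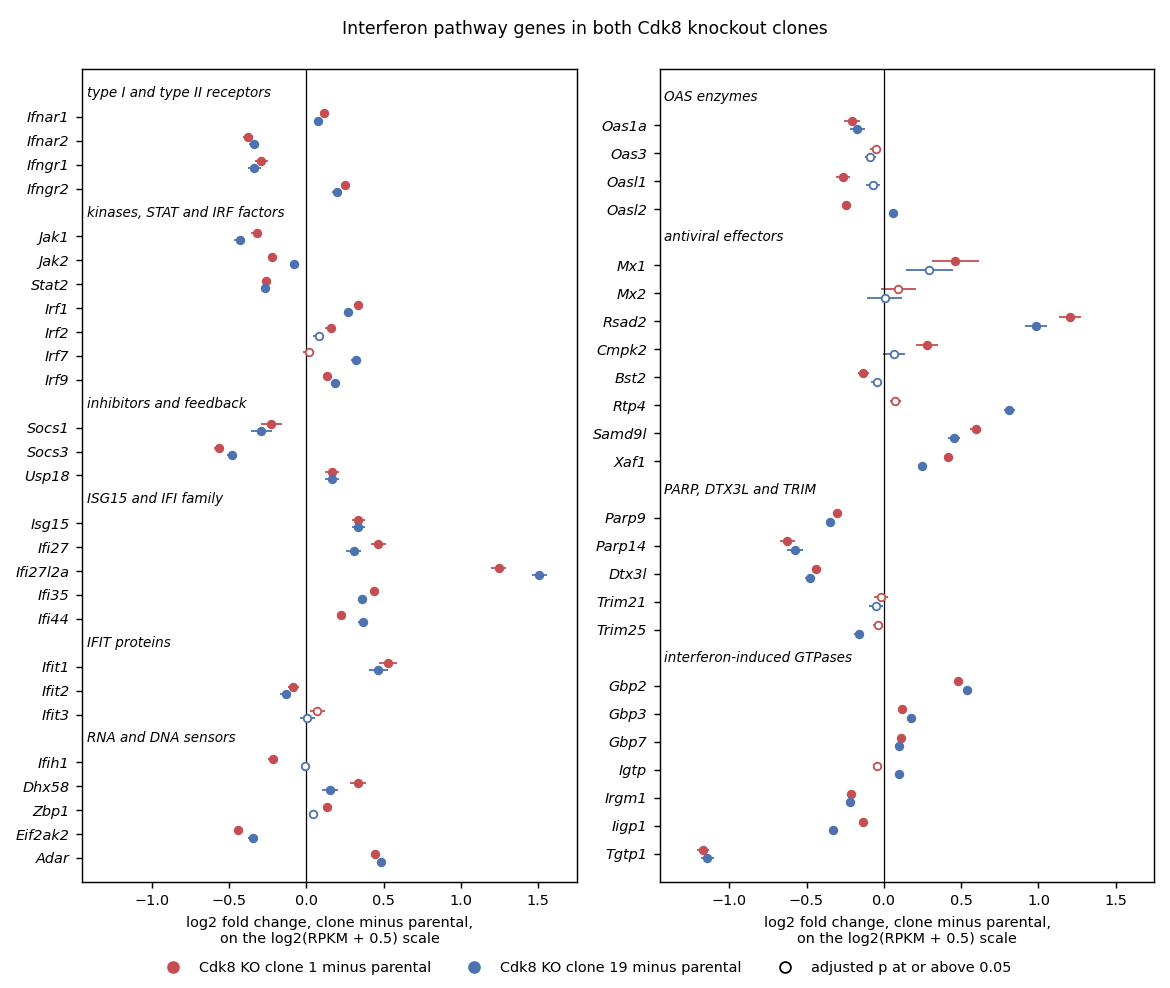
Log2 fold change (log2(RPKM + 0.5) scale) of the 51 tested interferon genes, grouped by role, in Cdk8 knockout clone 1 (red) and clone 19 (blue) relative to the parental line; bars are standard errors from the fit and open points did not pass an adjusted p of 0.05. The 2 clones lie close together for most genes, points fall on both sides of 0, and Ifi27l2a, Rsad2 and Tgtp1 lie farthest out, at 1.24, 1.20 and -1.17 in clone 1.

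The parental line already carried high levels of many of these transcripts. Iigp1, Gbp2, Bst2 and Irgm1 had parental means of 628, 492, 306 and 291 RPKM, and these 4 were among the top 1% of tested genes. In all, 13 of the interferon genes were in the top 10% and 44 were above the median of tested genes. The median interferon gene had 22.4 RPKM, against 11.2 RPKM for the median tested gene. The lowest were Mx1 at 0.674 RPKM, Oas2 at 1.00 RPKM and Mx2 at 1.32 RPKM. Transcripts of the interferons themselves were close to absent. Of 13 genes for interferons and the interferon lambda receptor, 8 were listed at 0 in all 9 libraries, including Ifng and Ifna4. Ifnb1 had 0.0559, 0.0398 and 0.0413 RPKM in the clone 1 libraries, far below the filter. It was listed at 0 in 2 of the clone 19 libraries, with 0.0523 RPKM in the third, and at 0 in the 3 parental ones. Ifnlr1, the specific chain of the lambda receptor, averaged 0.208 RPKM (clone 1) and 0.344 RPKM (clone 19), against 0.39 RPKM in the parental line.

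Upstream sequences are shown for 4 genes that rose in both clones (Rsad2, Gbp2, Ifit1 and Isg15) and 4 that fell in both (Tgtp1, Socs1, Irgm1 and Oas1a). They were picked among genes with an ISRE core within the 150 bases before the start, by the smaller of the changes in the clones. That the motif stands in each of them, in both directions, thus follows from how they were picked. Irf1 is shown as a gene that rose and holds a GAS core but no ISRE core. The sequences are from RefSeq on build GRCm38.p6, which is not the NCBIM37 build of the deposited values, and were matched by gene. Each is the 150 bases before the gene's start, 5′ to 3′ on the gene's strand. Those of genes that rose lie at chr12:26456453-26456602 for Rsad2 (minus strand), chr3:142620513-142620662 for Gbp2 (plus strand), chr19:34640739-34640888 for Ifit1 (plus strand) and chr4:156200819-156200968 for Isg15 (minus strand). Those of genes that fell lie at chr11:48992247-48992396 for Tgtp1 (minus strand), chr16:10785537-10785686 for Socs1 (minus strand), chr11:48871421-48871570 for Irgm1 (minus strand) and chr5:120907526-120907675 for Oas1a (minus strand). The last lies at chr11:53769864-53770013 for Irf1 (plus strand). Capitals mark matches on either strand to the ISRE core (GAAA, any 2 bases, GAAA) or to the GAS core (TTC, any 3 bases, GAA). Overlapping matches run together.
Rsad2: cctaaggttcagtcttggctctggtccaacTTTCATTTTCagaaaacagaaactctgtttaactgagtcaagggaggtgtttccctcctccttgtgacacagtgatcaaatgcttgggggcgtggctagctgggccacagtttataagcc
Gbp2: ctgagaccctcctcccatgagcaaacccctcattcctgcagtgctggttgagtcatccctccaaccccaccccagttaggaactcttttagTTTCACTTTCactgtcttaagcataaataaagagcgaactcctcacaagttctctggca
Ifit1: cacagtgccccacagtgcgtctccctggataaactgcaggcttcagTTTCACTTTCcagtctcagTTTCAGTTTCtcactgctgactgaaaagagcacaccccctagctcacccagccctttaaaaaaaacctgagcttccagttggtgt
Isg15: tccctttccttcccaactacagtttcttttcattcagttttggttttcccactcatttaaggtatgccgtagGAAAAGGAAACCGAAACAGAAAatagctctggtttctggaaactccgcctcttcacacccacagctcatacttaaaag
Tgtp1: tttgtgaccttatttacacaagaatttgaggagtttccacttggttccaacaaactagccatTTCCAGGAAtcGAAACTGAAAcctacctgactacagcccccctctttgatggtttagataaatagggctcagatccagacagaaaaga
Socs1: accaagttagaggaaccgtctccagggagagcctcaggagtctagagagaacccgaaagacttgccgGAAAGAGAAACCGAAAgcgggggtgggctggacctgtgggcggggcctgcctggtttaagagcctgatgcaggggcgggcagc
Irgm1: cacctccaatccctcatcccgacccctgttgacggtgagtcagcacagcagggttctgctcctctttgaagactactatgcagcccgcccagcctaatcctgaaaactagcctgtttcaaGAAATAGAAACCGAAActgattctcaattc
Oas1a: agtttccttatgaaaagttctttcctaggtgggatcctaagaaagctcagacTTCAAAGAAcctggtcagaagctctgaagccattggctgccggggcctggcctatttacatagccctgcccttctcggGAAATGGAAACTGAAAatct
Irf1: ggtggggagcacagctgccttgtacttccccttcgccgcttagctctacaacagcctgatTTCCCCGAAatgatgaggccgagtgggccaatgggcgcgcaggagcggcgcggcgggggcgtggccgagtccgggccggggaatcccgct
Positions of a match's first base are counted back from the gene's start. Isg15 holds 3 overlapping ISRE cores at -78, -72 and -66, and Ifit1 holds a pair at -104 and -85. In Tgtp1 a GAS core at -88 stands just before an ISRE core at -77, and Oas1a holds a GAS core at -98 with overlapping ISRE cores at -20 and -14. Irgm1 holds ISRE cores at -30 and -24 and Socs1 at -83 and -77.

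A window of 300 bases, from 250 before to 50 after the start, was found for 40 of the 52 genes. The ISRE core was present in 19 of them (47.5%), against 3.99% of 27025 genes with a window, and the GAS core in 14 (35.0%), against 9.55%. A stretch that matches both motifs counts for each. Genes with the ISRE core went both ways, when 30.7% of all genes tested rose in both clones and 25.8% fell in both. Of the 19 genes with one, 6 rose in both clones, 6 fell in both and 7 did neither. Of the 21 without one, 9 rose in both, 7 fell in both and 5 did neither. Of the 14 genes with a GAS core, 5 rose in both, 6 fell in both and 3 did neither. A match is a description of the letters only.

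In both clones Ifnar2 and Ifngr1 fell while their partner chains Ifnar1 and Ifngr2 rose. The calls of Ifngr1 in both clones and of Ifnar1 in clone 1 ended once the change of neighbouring genes was subtracted. Ifnar2, the chain that binds type I interferon most tightly, fell: it had 15.6, 15.4 and 15.4 RPKM in clone 1. Ifnar2 reached 15.4, 16.6 and 15.8 RPKM in clone 19, against 19.96, 20.2 and 20.6 RPKM in the parental line. All 6 clone libraries lay below the parental ones. Ifnar2 had a log2 fold change of -0.38 ± 0.03 in clone 1 and -0.34 ± 0.03 in clone 19 (adjusted p = 9.4e-07 and 2.4e-06, ± SE). Ifnar1, the other chain, had 16.6, 16.7 and 16.7 RPKM in clone 1. Ifnar1 reached 16.4, 16.1 and 16.03 RPKM in clone 19, against 15.4, 15.6 and 15.04 RPKM in the parental line. Its clone libraries lay above the parental ones by a small margin. Ifnar1 had a log2 fold change of 0.12 ± 0.03 in clone 1 and 0.08 ± 0.03 in clone 19 (adjusted p = 0.0023 and 0.021). In clone 19 the call ended with median-ratio scaling (0.06, adjusted p = 0.062), and without parental replicate 3 or clone 19 replicate 1. For interferon gamma, the signalling chain Ifngr2 rose (0.25 ± 0.03 in clone 1 and 0.20 ± 0.03 in clone 19). Ifngr2 averaged 31.9 ± 0.524 RPKM in clone 1, 30.7 ± 0.545 in clone 19 and 26.7 ± 0.741 in the parental line (SD, n = 3 in each group). The ligand-binding chain Ifngr1 fell (-0.29 ± 0.04 in clone 1 and -0.34 ± 0.04 in clone 19). Ifngr1 averaged 13.2 ± 0.661 RPKM in clone 1, 12.8 ± 0.546 in clone 19 and 16.3 ± 0.185 in the parental line. Genes next to each other on a chromosome can shift together, so the median change of the 50 nearest tested genes was also subtracted. For Ifngr1 those neighbours stood at -0.22 in clone 1 and -0.27 in clone 19, and what was left, -0.07 in each clone, did not pass (adjusted p = 0.13 and 0.17). Ifnar2, Ifnar1 and Ifngr2 are neighbours on chromosome 16, with Il10rb, which is shared by the receptors of interleukin 10 and interferon lambda, between them. The median change of the genes around Ifnar2 was 0.07 in clone 1 and 0.02 in clone 19. After the subtraction Ifnar2 was still called lower, at -0.44 in clone 1 and -0.37 in clone 19, and Ifngr2 higher, at 0.19 in clone 1 and 0.18 in clone 19. Ifnar1 then stood at 0.06 in clone 1 and did not pass (adjusted p = 0.074), and at 0.07 in clone 19, where it passed (adjusted p = 0.044). Il10rb itself averaged 17.1 ± 0.54 RPKM in clone 1, 16.9 ± 0.521 in clone 19 and 17.6 ± 0.497 in the parental line, and did not pass (-0.04, adjusted p = 0.3 in clone 1, and -0.06 in clone 19).

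Among the signalling proteins, the kinases and Stat2 fell while Irf1 and Irf9 rose. Jak1, which serves both receptors, had 35.5, 32.5 and 33.5 RPKM in clone 1. Jak1 reached 30.5, 31.3 and 32.2 RPKM in clone 19, against 43.3, 41.9 and 42.1 RPKM in the parental line. The clone libraries lay below all parental libraries, and clone 19 below clone 1. Jak1 had a log2 fold change of -0.32 ± 0.03 in clone 1 and -0.43 ± 0.03 in clone 19 (adjusted p = 6.2e-06 and 6.2e-07). Jak2, which serves the interferon gamma receptor, had 17.8, 17.6 and 18.1 RPKM in clone 1. Jak2 reached 19.8, 19.6 and 19.8 RPKM in clone 19, against 21.3, 21.1 and 20.3 RPKM in the parental line. Clone 1 lay lowest, with clone 19 between it and the parental line. Jak2 had a log2 fold change of -0.22 ± 0.03 in clone 1 and -0.08 ± 0.03 in clone 19 (adjusted p = 1.6e-05 and 0.018). The clone 19 call ended without parental replicate 1, parental replicate 2 or clone 19 replicate 2 (-0.07 each, adjusted p = 0.075, 0.06 and 0.053). With neighbours subtracted the fall was larger, at -0.45 in clone 1 and -0.25 in clone 19. Stat2, which joins Irf9 in the factor that binds ISREs, fell as well (-0.26 ± 0.03 in clone 1 and -0.27 ± 0.03 in clone 19). Stat2 averaged 34.1 ± 0.305 RPKM in clone 1, 33.9 ± 0.962 in clone 19 and 40.98 ± 0.782 in the parental line. Its neighbours fell further, and with them subtracted Stat2 was called higher, 0.10 in clone 1 and 0.07 in clone 19. Irf9 averaged 28.3 ± 0.334 RPKM in clone 1, 29.4 ± 0.529 in clone 19 and 25.8 ± 0.756 in the parental line, and the clone libraries did not overlap the parental ones. Irf9 had a log2 fold change of 0.13 ± 0.03 in clone 1 and 0.18 ± 0.03 in clone 19 (adjusted p = 0.0011 and 0.0001). Irf1, a factor that interferon gamma induces strongly, had 131, 137 and 136 RPKM in clone 1. Irf1 reached 128, 129 and 129 RPKM in clone 19, against 108, 107 and 105 RPKM in the parental line. Every clone library was above every parental one. Irf1 had a log2 fold change of 0.33 ± 0.02 in clone 1 and 0.27 ± 0.02 in clone 19 (adjusted p = 6.1e-08 and 4.1e-07). The neighbouring genes rose more, and with them subtracted the sign turned, to -0.11 in clone 1 and -0.08 in clone 19. Irf2, which competes with Irf1 for its sites, averaged 14.8 ± 0.188 RPKM in clone 1, 14.02 ± 0.62 in clone 19 and 13.2 ± 0.359 in the parental line and rose in clone 1 and was not called in clone 19. Irf2 had a log2 fold change of 0.16 ± 0.04 in clone 1 and 0.08 ± 0.04 in clone 19 (adjusted p = 0.0025 and 0.069). With neighbours subtracted Irf2 was called higher in clone 19 as well (0.11, adjusted p = 0.033), and Irf9 in clone 19 stood at 0.12. Irf7, the factor that amplifies type I interferon production, was higher in clone 19 alone: it had 30.3, 32.9 and 31.3 RPKM in clone 1. Irf7 reached 39.8, 39.4 and 37.99 RPKM in clone 19, against 30.7, 31.9 and 30.9 RPKM in the parental line. The clone 1 and parental libraries overlapped. Irf7 had a log2 fold change of 0.01 ± 0.03 in clone 1 and 0.32 ± 0.03 in clone 19 (adjusted p = 0.71 and 5.9e-06).

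The feedback inhibitors also went both ways. Socs3, which binds cytokine receptors and JAKs, had 11.6, 10.97 and 11.5 RPKM in clone 1. Socs3 reached 12.2, 12.1 and 11.9 RPKM in clone 19, against 16.8, 17.5 and 16.8 RPKM in the parental line. All clone libraries lay below the parental range. Socs3 had a log2 fold change of -0.56 ± 0.03 in clone 1 and -0.48 ± 0.03 in clone 19 (adjusted p = 4.3e-08 and 1.8e-07). Socs1, which inhibits JAKs directly, averaged 17.5 ± 1.91 RPKM in clone 1, 16.6 ± 0.789 in clone 19 and 20.4 ± 0.446 in the parental line. Socs1 had a log2 fold change of -0.23 ± 0.07 in clone 1 and -0.29 ± 0.07 in clone 19 (adjusted p = 0.0096 and 0.0023). Without clone 1 replicate 3, which at 15.3 RPKM was the lowest, the clone 1 change was -0.14 (adjusted p = 0.014). With neighbours subtracted Socs1 stood lower, at -0.45 in clone 1 and -0.49 in clone 19. Usp18, which removes ISG15 and blocks signalling at Ifnar2, averaged 26.2 ± 1.08 RPKM in clone 1, 26.1 ± 0.708 in clone 19 and 23.3 ± 1.56 in the parental line. Usp18 had a log2 fold change of 0.17 ± 0.05 in clone 1 and 0.17 ± 0.05 in clone 19 (adjusted p = 0.0074 and 0.0081).

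All 5 genes of the ISG15 and IFI group rose in both clones, as 30.7% of all genes did. Ifi27l2a, a small interferon-induced membrane protein, changed most among the 51 genes: it had 52.98, 59.1 and 52.1 RPKM in clone 1. Ifi27l2a reached 68.05, 66.2 and 62.9 RPKM in clone 19, against 22.4, 23.9 and 22.1 RPKM in the parental line. Every clone 19 library was above every clone 1 library, and these were above the parental ones. Ifi27l2a had a log2 fold change of 1.24 ± 0.05 in clone 1 and 1.51 ± 0.05 in clone 19 (adjusted p = 2.4e-09 and 6.3e-10). Ifi27, its relative, overlaps it in the RefSeq annotation and rose less (0.47 ± 0.05 in clone 1 and 0.31 ± 0.05 in clone 19). Ifi27 averaged 41.8 ± 2.62 RPKM in clone 1, 37.4 ± 1.49 in clone 19 and 30.1 ± 1.44 in the parental line. Reads of these 2 genes may have been shared, since no source used here gives the counting rule. Isg15, the ubiquitin-like modifier, had 104, 113 and 115 RPKM in clone 1. Isg15 reached 112, 110.4 and 109 RPKM in clone 19, against 84.3, 92.9 and 85.4 RPKM in the parental line. The clone libraries did not overlap the parental ones, and the change was alike in both clones. Isg15 had a log2 fold change of 0.34 ± 0.04 in clone 1 and 0.34 ± 0.04 in clone 19 (adjusted p = 2.8e-05 and 3.3e-05). With its neighbours subtracted it no longer passed, at 0.04 in clone 1 and 0.06 in clone 19 (adjusted p = 0.42 and 0.24). Ifi35, a partner of Nmi, rose as well (0.44 ± 0.03 in clone 1 and 0.36 ± 0.03 in clone 19). Ifi35 averaged 66.5 ± 1.63 RPKM in clone 1, 62.9 ± 0.802 in clone 19 and 48.9 ± 1.45 in the parental line. Ifi44 averaged 19.4 ± 0.513 RPKM in clone 1, 21.4 ± 0.503 in clone 19 and 16.5 ± 0.273 in the parental line, with clone 19 highest. Ifi44 had a log2 fold change of 0.23 ± 0.03 in clone 1 and 0.37 ± 0.03 in clone 19 (adjusted p = 3.8e-05 and 8.8e-07). With neighbours subtracted its clone 1 change was -0.04 and did not pass (adjusted p = 0.24), and its clone 19 change was 0.11.

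The 3 IFIT genes, whose proteins bind viral RNA ends, each behaved differently. Ifit1 had 28.8, 26.9 and 26.9 RPKM in clone 1. Ifit1 reached 26.2, 27.2 and 25.7 RPKM in clone 19, against 18.4, 21.2 and 17.4 RPKM in the parental line. All clone libraries were above the parental ones, of which replicate 2 was the highest. Ifit1 had a log2 fold change of 0.53 ± 0.06 in clone 1 and 0.47 ± 0.06 in clone 19 (adjusted p = 1.2e-05 and 3.8e-05). With neighbours subtracted Ifit1 stood at 0.33 in clone 1 and 0.30 in clone 19. The nearby gene Ifit1bl1, which overlaps Ifit1, was low throughout, at means of 0.888 (clone 1), 0.931 (clone 19) and 0.442 RPKM (parental line). Ifit2 averaged 17.04 ± 0.759 RPKM in clone 1, 16.4 ± 0.231 in clone 19 and 18.1 ± 0.27 in the parental line and fell by little. Ifit2 had a log2 fold change of -0.08 ± 0.03 in clone 1 and -0.13 ± 0.03 in clone 19 (adjusted p = 0.045 and 0.0044). In clone 1 the adjusted p was above 0.05 in 10 of the alternatives, and without clone 1 replicate 2 the change was -0.05 (adjusted p = 0.18). With neighbours subtracted the fall of Ifit2 was larger, at -0.28 in clone 1 and -0.29 in clone 19 (adjusted p = 1.2e-05 and 1e-05). Ifit3 averaged 14.8 ± 0.615 RPKM in clone 1, 14.1 ± 0.82 in clone 19 and 14.1 ± 0.621 in the parental line, with overlapping groups. Ifit3 had a log2 fold change of 0.07 ± 0.05 in clone 1 and 0.01 ± 0.05 in clone 19 (adjusted p = 0.21 and 0.9). Its near-identical copy Ifit3b may share reads with it. With neighbours subtracted, Ifit3 was lower, -0.12 in clone 1 and -0.15 in clone 19.

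**Figure D2:**
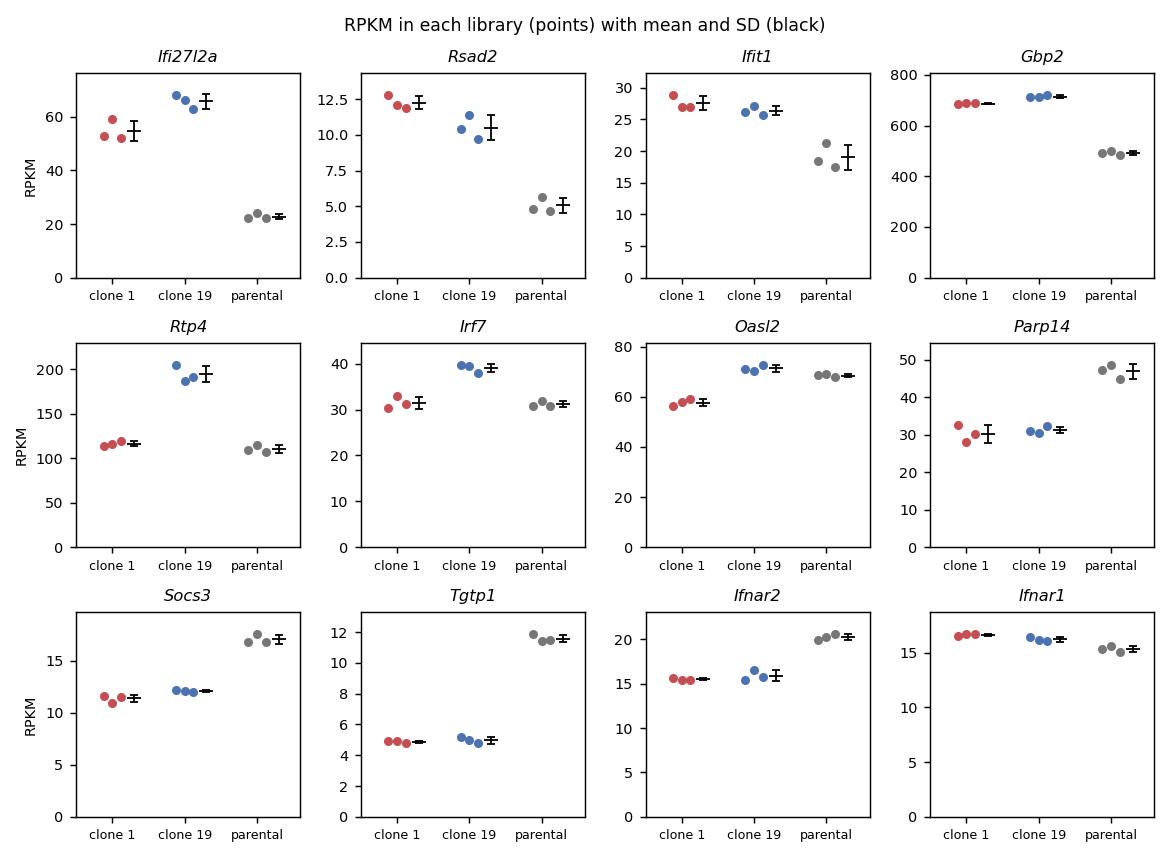
RPKM of 12 interferon genes in each library (points) with the group mean and SD (black), in clone 1 (red), clone 19 (blue) and the parental line (grey), on linear axes that start at 0. For Ifi27l2a, Rsad2, Ifit1 and Gbp2 all 6 clone libraries are above the parental ones, for Parp14, Socs3, Tgtp1 and Ifnar2 all are below, and Rtp4 and Irf7 stand out in clone 19.

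Among 8 antiviral effectors, 5 rose in clone 1 and 4 in clone 19, when 39.8% and 36.7% of all genes did. Rsad2 (viperin), which makes a chain-terminating nucleotide, had 12.8, 12.1 and 11.9 RPKM in clone 1. Rsad2 reached 10.4, 11.4 and 9.70 RPKM in clone 19, against 4.83, 5.66 and 4.70 RPKM in the parental line. The highest parental library, replicate 2, was still below the lowest clone library. Rsad2 had a log2 fold change of 1.20 ± 0.07 in clone 1 and 0.99 ± 0.07 in clone 19 (adjusted p = 5.6e-08 and 3.1e-07). Cmpk2, its neighbour on chromosome 12 and a nucleotide kinase, moved less and rose in clone 1 only. It averaged 13.1 ± 0.461 RPKM in clone 1, 11.2 ± 0.612 in clone 19 and 10.7 ± 1.24 in the parental line. Cmpk2 had a log2 fold change of 0.28 ± 0.07 in clone 1 and 0.07 ± 0.07 in clone 19 (adjusted p = 0.0038 and 0.42). Without parental replicate 2 it passed in clone 19 as well (0.15, adjusted p = 0.037). Samd9l, an antiviral and growth-restraining protein, had 33.7, 32.7 and 33.9 RPKM in clone 1. Samd9l reached 28.6, 30.96 and 31.4 RPKM in clone 19, against 21.9, 22.7 and 21.4 RPKM in the parental line. Its groups did not overlap, with clone 1 highest. Samd9l had a log2 fold change of 0.59 ± 0.04 in clone 1 and 0.45 ± 0.04 in clone 19 (adjusted p = 8.2e-08 and 8.4e-07). Xaf1, a partner of the inhibitor of apoptosis proteins, rose too (0.42 ± 0.03 in clone 1 and 0.25 ± 0.03 in clone 19). Xaf1 averaged 39.5 ± 1.25 RPKM in clone 1, 35.1 ± 0.329 in clone 19 and 29.5 ± 0.601 in the parental line. Rtp4, a negative regulator of interferon responses in mice, was raised in clone 19 alone: it had 114, 116 and 119 RPKM in clone 1. Rtp4 reached 205, 187 and 192 RPKM in clone 19, against 109.5, 115 and 107 RPKM in the parental line. The clone 1 libraries overlapped the parental ones, while clone 19 stood apart. Rtp4 had a log2 fold change of 0.07 ± 0.04 in clone 1 and 0.81 ± 0.04 in clone 19 (adjusted p = 0.091 and 7.9e-09). Without parental replicate 2 clone 1 passed at 0.10 (adjusted p = 0.03), and with neighbours subtracted at 0.13 (adjusted p = 0.018). Rtp4 overlaps Masp1, which averaged 0.0548 (clone 1), 0.0214 (clone 19) and 0.713 RPKM (parental line). Bst2 (tetherin), which holds budding virus at the cell surface, averaged 279.6 ± 13.3 RPKM in clone 1, 296 ± 4.13 in clone 19 and 306 ± 10.4 in the parental line and fell in clone 1. Bst2 had a log2 fold change of -0.13 ± 0.03 in clone 1 and -0.05 ± 0.03 in clone 19 (adjusted p = 0.0045 and 0.24). With neighbours subtracted Bst2 in clone 1 stood at -0.07 (adjusted p = 0.04) and Xaf1 in clone 19 at 0.16. The Mx genes, dynamin-like GTPases, were near the filter: Mx1 had 1.31, 1.10 and 0.908 RPKM in clone 1. Mx1 reached 0.758, 1.18 and 0.867 RPKM in clone 19, against 0.587, 0.932 and 0.504 RPKM in the parental line. It entered the test through clone libraries, since no parental library reached 1 RPKM, and its groups overlapped. Mx1 had a log2 fold change of 0.46 ± 0.15 in clone 1 and 0.29 ± 0.15 in clone 19 (adjusted p = 0.018 and 0.11). The clone 1 call ended without parental replicate 1, parental replicate 3 or clone 1 replicate 1 (adjusted p = 0.058, 0.074 and 0.067). Mx2 averaged 1.42 ± 0.0335 RPKM in clone 1, 1.31 ± 0.119 in clone 19 and 1.32 ± 0.339 in the parental line and did not pass. Mx2 had a log2 fold change of 0.09 ± 0.11 in clone 1 and 0.01 ± 0.11 in clone 19 (adjusted p = 0.48 and 0.97).

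Sensors of RNA and DNA moved separately. Adar, which edits double-stranded RNA, had 30.5, 29.8 and 29.3 RPKM in clone 1. Adar reached 30.9, 30.1 and 31.00 RPKM in clone 19, against 22.2, 22.1 and 21.2 RPKM in the parental line. Eif2ak2 (PKR), the kinase that double-stranded RNA activates, had 25.9, 24.4 and 25.3 RPKM in clone 1. Eif2ak2 reached 26.3, 26.7 and 27.7 RPKM in clone 19, against 35.2, 34.2 and 33.8 RPKM in the parental line. The clone libraries did not overlap the parental ones for either gene, with Adar above the parental range and Eif2ak2 below it. Adar had a log2 fold change of 0.44 ± 0.03 in clone 1 and 0.48 ± 0.03 in clone 19 (adjusted p = 8.2e-08 and 4.6e-08). Eif2ak2 had a log2 fold change of -0.44 ± 0.03 in clone 1 and -0.35 ± 0.03 in clone 19 (adjusted p = 2.1e-07 and 1.6e-06). With neighbours subtracted both were smaller changes, Adar at 0.20 in clone 1 and 0.19 in clone 19 and Eif2ak2 at -0.23 in clone 1 and -0.22 in clone 19, and all were still called. The pseudogene Gm6548 overlaps Eif2ak2 and was lower in the clones too, at means of 14.32 (clone 1), 14.55 (clone 19) and 19.04 RPKM (parental line). Dhx58 (LGP2), a regulator of the RIG-I family, rose, with means of 5.44 ± 0.0763 RPKM in clone 1, 4.73 ± 0.325 in clone 19 and 4.21 ± 0.168 in the parental line. Dhx58 had a log2 fold change of 0.33 ± 0.05 in clone 1 and 0.15 ± 0.05 in clone 19 (adjusted p = 0.00015 and 0.025). The clone 19 call ended without parental replicate 2, parental replicate 3 or clone 19 replicate 2; without the last of these it was 0.10 (adjusted p = 0.1). With neighbours subtracted neither clone passed, at 0.10 in clone 1 and 0.003 in clone 19. Ifih1 (MDA5), a sensor of long double-stranded RNA, had 15.4, 15.03 and 15.5 RPKM in clone 1. Ifih1 reached 17.5, 17.6 and 18.3 RPKM in clone 19, against 17.9, 18.2 and 17.5 RPKM in the parental line. Clone 1 lay below the other groups, which overlapped. Ifih1 had a log2 fold change of -0.22 ± 0.03 in clone 1 and -0.01 ± 0.03 in clone 19 (adjusted p = 4.3e-05 and 0.85). With neighbours subtracted clone 1 stood at -0.02 and clone 19 at 0.25. Zbp1, a sensor of Z-form nucleic acid, averaged 76.9 ± 2.20 RPKM in clone 1, 72.3 ± 0.605 in clone 19 and 70.1 ± 1.78 in the parental line and was called in clone 1 and not in clone 19. Zbp1 had a log2 fold change of 0.13 ± 0.03 in clone 1 and 0.05 ± 0.03 in clone 19 (adjusted p = 0.00067 and 0.14). That call ended with quantile normalization (0.03, adjusted p = 0.22), and with neighbours subtracted the clone 1 change was 0.07 (adjusted p = 0.028).

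Of 4 OAS genes tested, 3 fell in clone 1 and none was called higher, when 32.6% of all genes were called lower and 39.8% higher. These enzymes make the oligoadenylate signal that activates RNase L, although mouse Oasl1 lacks that activity. Oasl2 had 56.1, 57.8 and 59.1 RPKM in clone 1. Oasl2 reached 71.02, 70.04 and 72.8 RPKM in clone 19, against 68.6, 68.99 and 67.7 RPKM in the parental line. Clone 1 lay below the parental libraries and clone 19 above them by a small margin. Oasl2 had a log2 fold change of -0.25 ± 0.02 in clone 1 and 0.06 ± 0.02 in clone 19 (adjusted p = 3.2e-06 and 0.047). The rise in clone 19 did not pass in 11 of the alternatives and turned to -0.02 with quantile normalization, whereas the fall in clone 1 passed in every alternative run. Oasl1 averaged 8.72 ± 0.161 RPKM in clone 1, 10.1 ± 0.468 in clone 19 and 10.6 ± 0.661 in the parental line and fell in clone 1. Oasl1 had a log2 fold change of -0.26 ± 0.05 in clone 1 and -0.07 ± 0.05 in clone 19 (adjusted p = 0.00047 and 0.22). Oas1a averaged 9.71 ± 0.237 RPKM in clone 1, 9.97 ± 0.763 in clone 19 and 11.3 ± 0.421 in the parental line and fell in both. Oas1a had a log2 fold change of -0.21 ± 0.05 in clone 1 and -0.17 ± 0.05 in clone 19 (adjusted p = 0.0039 and 0.012). With neighbours subtracted it did not pass in clone 19 (-0.11, adjusted p = 0.099). Reads may be shared with its near-identical copies. Oas3 averaged 9.15 ± 0.0913 RPKM in clone 1, 8.93 ± 0.274 in clone 19 and 9.52 ± 0.333 in the parental line. Oas3 had a log2 fold change of -0.05 ± 0.04 in clone 1 and -0.09 ± 0.04 in clone 19 (adjusted p = 0.22 and 0.058). With median-ratio scaling it passed as lower in clone 19 (-0.10, adjusted p = 0.024). Oas2, at 0.874 ± 0.0933 RPKM in clone 1, 0.713 ± 0.101 in clone 19 and 1.00 ± 0.0487 in the parental line, was below the filter and not tested. Of the further OAS genes, Oas1b (-0.26) and Oas1g (-0.20) were called lower in clone 1 and not in clone 19 (0.02 and -0.05). Oas1c was not called in clone 1 (0.10, adjusted p = 0.21), although its libraries there lay above the parental ones, and was called higher in clone 19 (0.34, adjusted p = 0.0012).

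No gene of the PARP, DTX3L and TRIM group rose in either clone, when 39.8% of all genes rose in clone 1 and 36.7% in clone 19. Of its 5 genes, 3 were called lower in clone 1 and 4 in clone 19, when 32.6% and 32.3% of all genes were. Parp14, an ADP-ribosyltransferase that modulates interferon responses, had 32.8, 27.98 and 30.3 RPKM in clone 1. Parp14 reached 31.1, 30.6 and 32.2 RPKM in clone 19, against 47.3, 48.7 and 44.9 RPKM in the parental line. Every clone library was below every parental one. Parp14 had a log2 fold change of -0.62 ± 0.05 in clone 1 and -0.58 ± 0.05 in clone 19 (adjusted p = 7.4e-07 and 1.7e-06). Parp9 and Dtx3l, whose proteins form a ubiquitin ligase complex, are neighbours on chromosome 16 that overlap in the annotation. Dtx3l had 33.3, 32.5 and 31.7 RPKM in clone 1. Dtx3l reached 30.7, 31.4 and 32.3 RPKM in clone 19, against 44.7, 45.2 and 42.4 RPKM in the parental line. Parp9 had 75.1, 76.5 and 74.97 RPKM in clone 1. Parp9 reached 71.9, 73.8 and 73.6 RPKM in clone 19, against 93.5, 93.97 and 92.5 RPKM in the parental line. Both lay below the parental range in both clones. Dtx3l had a log2 fold change of -0.44 ± 0.03 in clone 1 and -0.48 ± 0.03 in clone 19 (adjusted p = 2.6e-07 and 1.3e-07). Parp9 had a log2 fold change of -0.30 ± 0.02 in clone 1 and -0.35 ± 0.02 in clone 19 (adjusted p = 8.2e-08 and 2.9e-08). Trim25, a ubiquitin ligase that activates RIG-I, averaged 18.6 ± 0.537 RPKM in clone 1, 17.03 ± 0.516 in clone 19 and 19.1 ± 0.52 in the parental line and fell in clone 19. Trim25 had a log2 fold change of -0.04 ± 0.03 in clone 1 and -0.16 ± 0.03 in clone 19 (adjusted p = 0.32 and 0.0015). With neighbours subtracted its changes were 0.07 in clone 1 and -0.04 in clone 19, of which clone 1 passed and clone 19 did not (adjusted p = 0.046 and 0.28). Trim21, an intracellular antibody receptor, averaged 11.8 ± 0.499 RPKM in clone 1, 11.5 ± 0.586 in clone 19 and 11.9 ± 0.271 in the parental line with overlapping groups. Trim21 had a log2 fold change of -0.02 ± 0.04 in clone 1 and -0.05 ± 0.04 in clone 19 (adjusted p = 0.73 and 0.32). With neighbours subtracted Trim21 was called lower, at -0.15 in clone 1 and -0.16 in clone 19 (adjusted p = 0.025 and 0.021).

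The interferon-induced GTPases, which attack the vacuoles of intracellular pathogens, were among the most abundant of these transcripts and went both ways. Gbp2, a guanylate-binding protein, had 684, 688 and 688 RPKM in clone 1. Gbp2 reached 712, 711 and 720.00 RPKM in clone 19, against 492, 499 and 486 RPKM in the parental line. The groups did not overlap and clone 19 was highest in RPKM, but with quantile normalization clone 19 was called below clone 1 (-0.06, adjusted p = 0.018). Gbp2 had a log2 fold change of 0.48 ± 0.01 in clone 1 and 0.54 ± 0.01 in clone 19 (adjusted p = 4.4e-10 and 2.2e-10). Gbp3 averaged 229.8 ± 1.72 RPKM in clone 1, 239 ± 2.17 in clone 19 and 212 ± 1.59 in the parental line. Gbp3 had a log2 fold change of 0.12 ± 0.02 in clone 1 and 0.17 ± 0.02 in clone 19 (adjusted p = 4.3e-05 and 1.8e-06). Gbp7 averaged 99.9 ± 2.25 RPKM in clone 1, 98.95 ± 1.21 in clone 19 and 92.4 ± 1.96 in the parental line. Gbp7 had a log2 fold change of 0.11 ± 0.02 in clone 1 and 0.10 ± 0.02 in clone 19 (adjusted p = 0.0011 and 0.0026). These small rises turned with the processing. With quantile normalization Gbp3 stood at -0.0089 in clone 1 and Gbp7 at -0.0016 in clone 19. With neighbours subtracted both genes were called lower, Gbp3 at -0.23 in clone 1 and -0.14 in clone 19 and Gbp7 at -0.25 in clone 1 and -0.23 in clone 19. Against the parental line Gbp2 kept its call in all alternatives, at 0.18 in clone 1 and 0.26 in clone 19 with neighbours subtracted.

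Tgtp1, an immunity-related GTPase (IRG), fell most of the 51 genes: it had 4.90, 4.92 and 4.81 RPKM in clone 1. Tgtp1 reached 5.21, 4.98 and 4.76 RPKM in clone 19, against 11.9, 11.4 and 11.5 RPKM in the parental line. All clone libraries lay far below the parental ones, and the clones were alike. Tgtp1 had a log2 fold change of -1.17 ± 0.04 in clone 1 and -1.14 ± 0.04 in clone 19 (adjusted p = 9.9e-10 and 1.3e-09). Its near-identical neighbour Tgtp2 averaged 9.16 ± 0.77 RPKM in clone 1, 10.1 ± 0.694 in clone 19 and 16.8 ± 0.436 in the parental line, and reads may be split between these genes. Iigp1, which loads onto the vacuole, had 571, 566 and 576 RPKM in clone 1. Iigp1 reached 492, 508 and 502 RPKM in clone 19, against 642, 624 and 617 RPKM in the parental line. It lay below the parental range in clone 1 and further below in clone 19. Iigp1 had a log2 fold change of -0.14 ± 0.02 in clone 1 and -0.33 ± 0.02 in clone 19 (adjusted p = 6.1e-05 and 5.9e-08). With neighbours subtracted Iigp1 stood at -0.35 in clone 1 and -0.37 in clone 19, and the difference between the clones did not pass (-0.03, adjusted p = 0.34). Irgm1, a regulator of the other IRG proteins, averaged 251 ± 3.13 RPKM in clone 1, 249.8 ± 2.96 in clone 19 and 291 ± 3.62 in the parental line and fell alike in both. Irgm1 had a log2 fold change of -0.22 ± 0.02 in clone 1 and -0.22 ± 0.02 in clone 19 (adjusted p = 7.2e-07 and 6.4e-07). With neighbours subtracted Irgm1 in clone 19 stood at -0.12. Igtp averaged 241 ± 5.96 RPKM in clone 1, 265 ± 3.11 in clone 19 and 248 ± 2.27 in the parental line, was not called in clone 1 and rose in clone 19. Igtp had a log2 fold change of -0.04 ± 0.02 in clone 1 and 0.10 ± 0.02 in clone 19 (adjusted p = 0.08 and 0.0013). With neighbours subtracted it was called lower in both, at -0.27 in clone 1 and -0.13 in clone 19. With median-ratio scaling clone 1 was called lower (-0.08, adjusted p = 0.0047).

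With the 13 GTPases that are not among the 52 genes added, the families by chromosome read as follows. Over all genes, 39.8% were called higher and 32.6% lower in clone 1, 36.7% and 32.3% in clone 19, and 25.8% lower in both. Of 5 GBP genes on chromosome 3, 4 were called higher and 1, Gbp2b, lower in each clone. The median over these genes of their neighbours' change was 0.35 (clone 1) and 0.31 (clone 19). With neighbours subtracted Gbp2 alone was higher, and 4 of these genes were called lower in clone 1 and 3 in clone 19. All 6 GBP genes on chromosome 5 fell in both clones, at -1.03 to -0.39 in clone 1 and -0.92 to -0.16 in clone 19 on the log2 scale. Their neighbours stood at -0.06 and -0.08, and all 6 were called lower with neighbours subtracted. Of 6 IRG genes on chromosome 11, clone 1 had 4 lower and 2 not called, and clone 19 had 1 higher, 3 lower and 2 not called. All 3 IRG genes on chromosome 18 fell in both. Many GBP and IRG genes are near-identical copies, so the share of reads each received is uncertain. Gbp2b was named after its values were seen.

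**Figure D3:**
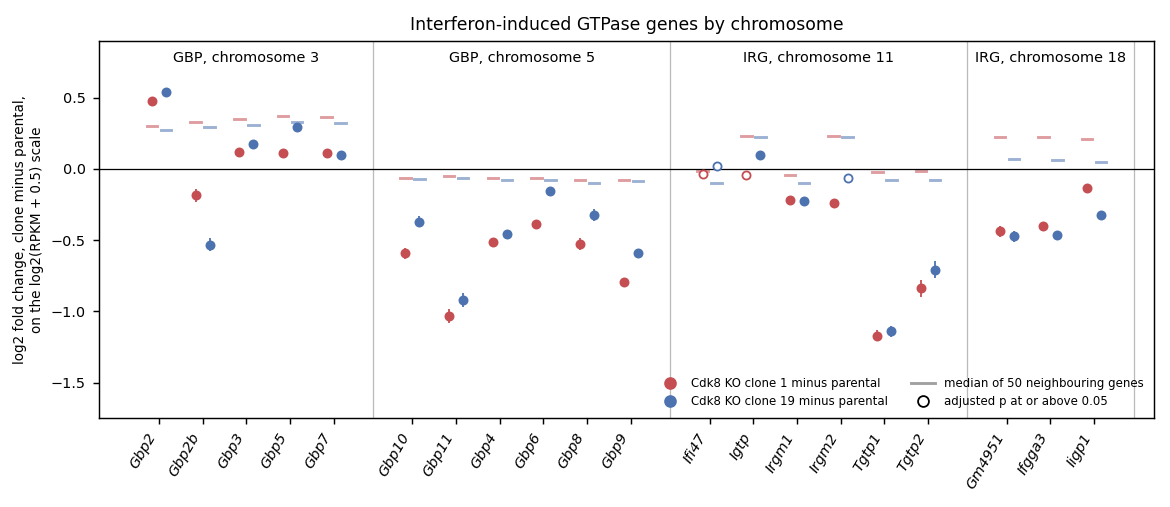
Log2 fold change (log2(RPKM + 0.5) scale) of 20 interferon-induced GTPase genes by chromosome in clone 1 (red) and clone 19 (blue) relative to the parental line, with standard errors; the short lines are the median log2 fold change of the 50 nearest tested genes and open points did not pass an adjusted p of 0.05. All 6 GBP genes on chromosome 5 lie below 0 and below their neighbours' lines, while on chromosome 3 Gbp2 lies above its line and Gbp3 and Gbp7 below theirs.

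The clones were also compared with each other. In clone 19 against clone 1, 12 interferon genes were higher, 12 lower and 27 did not pass. So 47.1% were called, against 43.0% of all genes (18.5% higher and 24.5% lower). Their libraries did not overlap for 29 genes, 56.9% against 51.5% of all genes. The count of lower genes rested on single libraries: it was 4 without clone 19 replicate 1, 6 without clone 19 replicate 3 and 7 without clone 1 replicate 2, and 5 with neighbours subtracted. Rtp4 alone differed by at least 1.5-fold, which 1.96% of these genes and 1.76% of all genes did. It stood 0.74 ± 0.04 higher on the log2 scale (± SE, adjusted p = 2.4e-07) in clone 19 relative to clone 1. Irf7 (0.31 ± 0.03, adjusted p = 4.7e-05) and Oasl2 (0.30 ± 0.02, adjusted p = 5.8e-06) followed, then Ifi27l2a (0.26 ± 0.05, adjusted p = 0.0016) and Ifih1 (0.21 ± 0.03, adjusted p = 0.00024). Clone 1 was higher for Rsad2 (-0.21 ± 0.07, adjusted p = 0.031) and Cmpk2 (-0.21 ± 0.07, adjusted p = 0.029), which lie side by side. It was also higher for Iigp1 (-0.19 ± 0.02, adjusted p = 3.3e-05) and Xaf1 (-0.17 ± 0.03, adjusted p = 0.00065); the Iigp1 call ended with neighbours subtracted.

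Other genes of the pathway, listed by function with earlier results of these data known, also went both ways; each pair of values in brackets is the log2 fold change in clone 1, then in clone 19. Of 17 genes that sense nucleic acid or signal upstream of interferon, clone 1 had 6 higher, 6 lower and 5 not called, and clone 19 had 5, 8 and 4. Over all genes tested, 39.8% were called higher and 32.6% lower in clone 1, and 36.7% and 32.3% in clone 19. The highest were Irf5 (0.67 and 0.75), a factor in Toll-like receptor signalling, and Mb21d1 (0.88 and 0.59), the DNA sensor cGAS. Rnaseh2c (0.14 and 0.29) and Mavs (0.16 and 0.12), the adaptor of RNA sensors, rose less. With neighbours subtracted Rnaseh2c did not pass in clone 1 (0.10, adjusted p = 0.056), nor Mavs in clone 19 (0.06, adjusted p = 0.16). The lowest were Rnaseh2a (-0.77 and -0.51), the catalytic subunit of a ribonuclease, and Samhd1 (-0.48 and -0.39), which degrades deoxynucleotides. Ikbke (-0.32 and -0.50) and Tbk1 (-0.27 and -0.29), the kinases of Irf3, fell too. With neighbours subtracted Tbk1 passed in neither clone (0.02 and 0.005, adjusted p = 0.53 and 0.9). Rnaseh2a in clone 19 then stood at -0.08 (adjusted p = 0.05). Mb21d1 had 5.06, 4.64 and 5.01 RPKM in clone 1. Mb21d1 reached 3.73, 3.95 and 4.11 RPKM in clone 19, against 2.42, 2.35 and 2.56 RPKM in the parental line. Irf5 had 11.4, 11.3 and 10.3 RPKM in clone 1. Irf5 reached 11.3, 12.01 and 11.5 RPKM in clone 19, against 6.72, 7.35 and 6.10 RPKM in the parental line. In both genes all clone libraries lay above the parental ones.

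Of 11 further JAK, IRF and feedback genes tested, clone 1 had 4 higher, 5 lower and 2 not called, and clone 19 had 5 higher and 6 lower. Over all genes, 39.8% were higher and 32.6% lower in clone 1, and 36.7% and 32.3% in clone 19. Irf8, a factor best known in myeloid cells, had 11.8, 11.4 and 11.7 RPKM in clone 1. Irf8 reached 11.9, 11.99 and 12.5 RPKM in clone 19, against 19.5, 20.3 and 18.6 RPKM in the parental line. It fell furthest (-0.72 and -0.66), without overlap of the groups. Tyk2 (-0.28 and -0.27), the third kinase of these receptors, Pias4 (-0.30 and -0.27) and Ptpn1 (-0.21 and -0.11) also fell. The phosphatases Ptpn6 (0.45 and 0.52) and Ptpn2 (0.23 and 0.11), Nmi (0.28 and 0.15) and Irf2bp2 (0.18 and 0.13) rose. With neighbours subtracted Irf2bp2 was called lower instead, at -0.21 in clone 1 and -0.16 in clone 19 (adjusted p = 0.00028 and 0.0021). Ptpn2 (0.01 and 0.06) and Pias4 (0.07 and 0.05) then passed in neither clone. Ptpn6 entered the test through the clone libraries, since no parental library reached 1 RPKM. Of the 13 further GTPases, clone 1 had 1 higher and 11 lower, and clone 19 had 1 higher and 10 lower. Their median log2 fold changes were -0.44 and -0.46, beside 0.03 and 0.02 over all genes. Gbp11 (-1.03 and -0.92), Gbp9 (-0.80 and -0.59) and Gbp4 (-0.51 and -0.46) fell with Tgtp2, and Gbp5 (0.11 and 0.30) rose. Of 48 other interferon-stimulated genes tested, clone 1 had 20 higher, 19 lower and 9 not called, and clone 19 had 18, 19 and 11. Those counts stand beside 39.8% of all genes higher and 32.6% lower in clone 1, and 36.7% and 32.3% in clone 19. Ranked by the smaller of each gene's changes in the 2 clones, the largest rises were Phf11d (0.63 and 0.62), Isg20 (0.82 and 0.57), an exonuclease, Trim30a (1.06 and 0.48) and Sp140 (0.85 and 0.48). By the same measure the largest falls were Ifi205 (-0.83 and -1.19), Ifi203 (-0.66 and -0.71), Ifi27l2b (-0.43 and -0.69) and Lgals3bp (-0.42 and -0.41). Ifi27l2b passed the filter through the parental libraries, at 1.04, 1.59 and 1.30 RPKM, since 1 clone library alone reached 1 RPKM, and clone 1 overlapped the parental range. The chemokines Cxcl9 and Cxcl10, named after their values were seen, fell more in clone 1. Cxcl9 had 1.24, 1.43 and 1.47 RPKM in clone 1. Cxcl9 reached 5.17, 4.71 and 4.69 RPKM in clone 19, against 5.36, 5.59 and 5.38 RPKM in the parental line. Its log2 fold change of -1.66 in clone 1 was lower than that of any of the 51 interferon genes, while in clone 19 it was -0.15 (adjusted p = 1.3e-09 and 0.044). Cxcl9 stood 1.51 higher on the log2 scale in clone 19 than in clone 1 (adjusted p = 8.7e-08). Cxcl10 stood at -0.66 in clone 1 and -0.20 in clone 19, and differed between the clones by 0.46 (adjusted p = 1e-06).

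The parental libraries differed among themselves in a subset of these genes. Parental replicate 2 was the highest of its group for 30 of the 51 genes (58.8%), against 37.3% of all tested genes. Its log2 ratio over the mean of the other 2 parental libraries was 0.45 for Mx1, 0.44 for Mx2, 0.25 for Cmpk2, 0.24 for Ifit1 and 0.23 for Rsad2. It was 0.16 for Usp18, 0.15 for Oasl1 and 0.13 for Isg15, and close to 0 for most others. Leaving out this library raises, by construction, the change of any gene whose highest parental value it holds, such as those just named. Without this library, Rsad2 stood at 1.28 in clone 1 and 1.06 in clone 19, Ifit1 at 0.61 and 0.55, and Isg15 at 0.38 and 0.38. The counts were then 25 higher and 19 lower in clone 1 and 23 higher and 16 lower in clone 19. Mx1, which entered the test through clone libraries, passed in both clones without it (0.61 and 0.45, adjusted p = 0.0032 and 0.018), and Mx2 in clone 1 (0.24, adjusted p = 0.023). The highest parental value of both genes was the one removed, so these passes are no support for a rise.

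**Figure D4:**
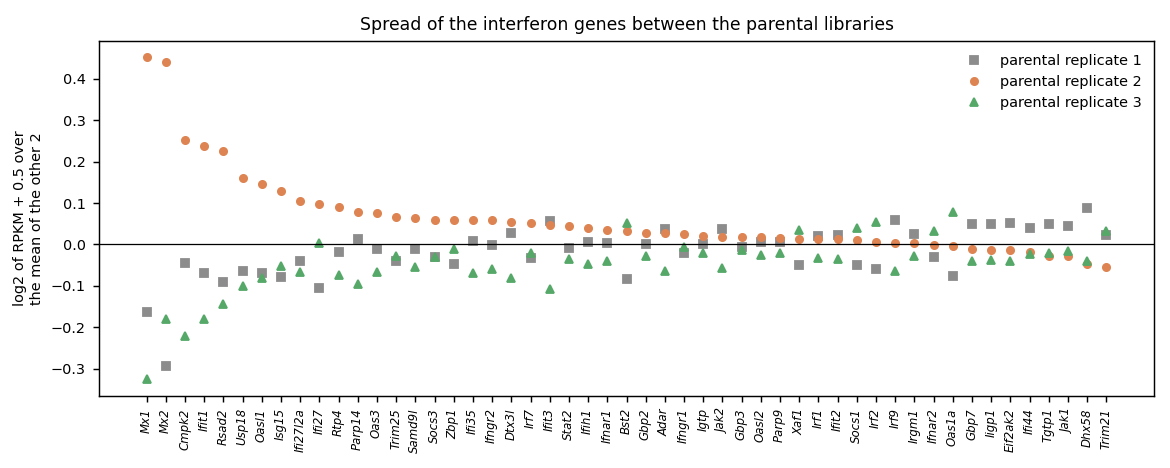
Log2 of RPKM + 0.5 in each parental library over the mean of the other 2, for the 51 tested interferon genes ordered by parental replicate 2. Replicate 2 stands above the others at the left, with Mx1 at 0.45, Mx2 at 0.44 and Cmpk2 at 0.25, and is close to 0 for most genes.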

How the data were processed

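Total RNA of 9 YAMC libraries, 3 per group, had been sequenced after a TruSeq preparation, per the labels' protocols. The authors deposited 1 table of RPKM values for 28059 Entrez gene IDs. Per the submitters' processing notes, GSNAP, DESeq and build NCBIM37 were used, with no versions or roles; no source used here gives the annotation, the counting rule or the strand. RefSeq named 24998 IDs, and 2 list names that were second names of a listed gene were dropped.

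Values were tested as log2(RPKM + 0.5) with limma 3.58.1 (R 4.3.3, mean-variance trend) in 1 model of all 9 libraries, for genes with at least 1 RPKM in at least 3 libraries; fold changes on this scale understate those of low genes. P-values were Benjamini-Hochberg adjusted over all 12568 genes within a comparison and called below 0.05. The test was checked on simulated data. The deposited RPKM hold no counts, and the depths given are estimates from exon lengths and low values, so no count test was run.

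The groups came from the titles. The 52 genes and all lists were chosen with earlier results of these data known. All 52 genes are named; of each other pathway list, up to 4 genes per direction called alike in both clones, by the smaller of the 2 changes; Il10rb, Ifnlr1, Ifnb1, Ifit1bl1, Ifit3b, Gm6548, Masp1 and Gbp2b were named for their position or role after values were seen. Markers were counted and summed. Alternatives were pseudocounts of 0.1 and 1, no filter or one of 3 RPKM, scaling by median ratios or by quantile normalization, a replicate block, a fit of the compared groups only, each library left out, and subtraction of the 50 nearest genes, which earlier work on these data had used.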

Additional observations from a re-analysis of the deposited data

Results flagged for a closer look

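The 24 interferon genes below differed between clone 19 and clone 1, tested directly in the limma fit with Benjamini-Hochberg adjustment over all genes; 43.0% of all genes did so. The values are log2 differences, clone 19 minus clone 1, and the 3 clone 19 libraries were set against the 3 clone 1 libraries.

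Genes that were raised relative to the parental line in clone 19 alone, or more there, were Rtp4 at 0.74 (adjusted p = 2.4e-07), Irf7 at 0.31 (adjusted p = 4.7e-05), Ifi27l2a at 0.26 (adjusted p = 0.0016) and Ifi44 at 0.14 (adjusted p = 0.0036). Genes that had fallen in clone 1 and less or not in clone 19 were Oasl2 at 0.30 (adjusted p = 5.8e-06), Ifih1 at 0.21 (adjusted p = 0.00024), Oasl1 at 0.19 (adjusted p = 0.0078), Jak2 at 0.14 (adjusted p = 0.0014) and Eif2ak2 at 0.0920 (adjusted p = 0.032). The GTPases on the higher side were Igtp at 0.14 (adjusted p = 0.00033), Gbp3 at 0.0584 (adjusted p = 0.011) and Gbp2 at 0.0571 (adjusted p = 0.011). With quantile normalization Gbp2 was called the other way, at -0.0552 (adjusted p = 0.018).

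On the lower side, antiviral effectors and sensors that had risen in clone 1, and less or not in clone 19, were Rsad2 at -0.21 (adjusted p = 0.031), Cmpk2 at -0.21 (adjusted p = 0.029), Dhx58 at -0.18 (adjusted p = 0.016), Xaf1 at -0.17 (adjusted p = 0.00065), Samd9l at -0.14 (adjusted p = 0.01) and Zbp1 at -0.0881 (adjusted p = 0.017). Others that had risen more in clone 1 were Ifi27 at -0.16 (adjusted p = 0.022), Ifi35 at -0.0798 (adjusted p = 0.032) and Irf1 at -0.0657 (adjusted p = 0.021). Genes that stood lower in clone 19 than in clone 1 and in the parental line were Iigp1 at -0.19 (adjusted p = 3.3e-05), Trim25 at -0.12 (adjusted p = 0.015) and Jak1 at -0.11 (adjusted p = 0.021). For Rsad2 and Cmpk2 the call ended without clone 1 replicate 1, clone 1 replicate 2, clone 19 replicate 1 or clone 19 replicate 3. With neighbours subtracted, the calls of Iigp1, Jak1, Irf1, Ifi27, Ifi35, Dhx58, Samd9l and Eif2ak2 ended. Only 11 of the 24 calls passed in every alternative run.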

How the results depend on the processing

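Of the interferon genes called, 30 of 43 in clone 1, 27 of 40 in clone 19 and 11 of 24 between the clones passed with the same sign in every alternative run. Leaving out 1 library at a time gave 22 to 25 higher and 19 to 21 lower genes in clone 1, 20 to 23 and 16 to 18 in clone 19, and 11 to 13 higher and 4 to 12 lower in clone 19 against clone 1. The other alternatives gave 19 to 23 higher and 19 to 23 lower, 19 to 23 and 17 to 19, and 11 to 14 and 5 to 12. The lower count between the clones was 5 with neighbours subtracted, beside 12. Deviations of libraries with the same replicate number correlated weakly (-0.035 to 0.123 between groups). Between clone 1 and the parental line these correlations were 0.123, 0.068 and 0.071, all above those of unlike numbers (-0.14 to 0.059). Clone 19 had -0.014, 0.04 and -0.002 with the parental line and -0.035, 0.044 and -0.027 with clone 1. Not every library correlated best with its own number, so whether the numbers pair the libraries is not settled. A replicate block gave 23 higher and 19 lower in clone 1, 22 and 17 in clone 19, and 12 and 12 between the clones; it ended the calls of Ifit2 in clone 1 and Oasl2 in clone 19.

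Among the tested interferon genes signs turned, where either value passed, under 2 alternatives, and the cause was not tested. With neighbours subtracted, in clone 1 Stat2 stood at 0.10, Irf1 at -0.11, Ifi44 at -0.0429, Ifit3 at -0.12, Trim25 at 0.0736, Gbp3 at -0.23 and Gbp7 at -0.25. In clone 19, Stat2 stood at 0.0711, Irf1 at -0.0796, Ifit3 at -0.15, Ifih1 at 0.25, Gbp3 at -0.14, Gbp7 at -0.23 and Igtp at -0.13, and between the clones Irf1 stood at 0.0286. With quantile normalization, Gbp3 stood at -0.0089 in clone 1, Oasl2 at -0.0241 and Gbp7 at -0.0016 in clone 19, and Gbp2 at -0.0552 between the clones. Mx1, Mx2 and Oas2 lay near 1 RPKM, the level of the filter.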
